A study of Mus musculus with 6 samples.

Results

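Genes of nonmuscle myosin II, its actin crosslinkers and the focal adhesion were measured by bulk RNA-seq of F1 mouse embryonic stem cells (mESCs) and of cardiac precursor cell cultures (CPCCs). The 9 members (*Myh9*, *Myh10*, *Actn1*, *Actn4*, *Flna*, *Flnc*, *Vcl*, *Zyx* and *Tln1*) were chosen by gene symbol out of the 16279 genes that either deposited table lists. Earlier results of these data were known when they were chosen. All 9 are listed for both cell types. The mESCs were male lines from blastocysts of a cross between C57BL/6J mothers and CAST/EiJ fathers, recloned from single cells and kept in 2i medium with LIF on gelatin. The CPCCs were grown from male mESCs of this cross by way of embryoid bodies from hanging drops with ascorbic acid, whose cells were plated on gelatin with EGF and Fgf2 and taken at the fourth passage. No step that sorts the cells is described. The study calls both cultures heterogeneous, and its single-cell data divide the CPCCs into several clusters. Each cell type has 3 libraries, named by their columns as S01, S02 and S03 (mESCs) and S04, S05 and S06 (CPCCs). The study derived the CPCCs from the same 3 mESC clones, so the cell types share clones. The columns give no replicate number, so no CPCC library could be tied to an mESC clone, and the libraries were fitted without pairing. The values are the authors' estimated read counts per gene, without a split by allele, and levels are given as CPM, the count over the library's total scaled to 1000000 counts.

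Nonmuscle myosin II is the motor that pulls on actin filaments outside of striated and smooth muscle, and alpha-actinins and filamins tie those filaments into bundles and networks. The bundles end at focal adhesions, where talin joins the tails of integrins to actin, vinculin strengthens that joint and zyxin gathers on adhesions and fibres under tension. Cells that spread on a rigid surface, such as fibroblasts and smooth muscle cells, are known for thick actin bundles and large adhesions.

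The libraries held 6442639 to 6907330 counts in mESCs and 8468819 to 11436062 in CPCCs, and S04 was the deepest. All 8 mESC markers checked (among them *Nanog*, *Pou5f1* and *Esrrb*) were lower in CPCCs, with summed levels of 5249.9 to 5595 CPM in mESCs and 108 to 295 CPM in CPCCs. Of 11 cardiac progenitor markers, 9 are listed for CPCCs, and their sum was 7.30 to 11.9 CPM in mESCs and 50.6 to 102 CPM in CPCCs. *Tbx5* and *Mesp1* are missing from the CPCC table and *Nkx2-5* was at 0 to 1.40 CPM there, and *Isl1*, *Gata4*, *Hand1*, *Hand2*, *Pdgfra* and *Kdr* were each at no more than 7.68 CPM in any CPCC library. The highest of the list in CPCCs were *Tbx20* at 67.2, 26.5 and 18.4 CPM, the 1 marker called higher (log2 fold change 2.72 ± 0.63 SE, adjusted p = 0.00472, edgeR), and *Mef2c* at 17.0, 9.64 and 13.2 CPM, listed for CPCCs only. Markers of other cell types differed between the cultures too, and genes missing from a table count as 0 in these sums. Of 10 fibroblast and mesenchyme markers, all 10 are listed for CPCCs and 3 for mESCs, with sums of 6306 to 9125 CPM against 9.93 to 17.1 CPM. All 6 smooth muscle markers are listed for CPCCs and 3 for mESCs, with 6230.2 to 9884 CPM against 11.4 to 20.3 CPM. All 6 neural markers are listed for CPCCs and 5 for mESCs, with 504 to 608 CPM against 43.9 to 47.8 CPM. For 10 striated muscle markers, of which 9 are listed for CPCCs (not *Myod1*) and 5 for mESCs, the sums were 150 to 452 CPM against 74.8 to 83.9 CPM. Most of the mESC sum was *Ttn* (63.8 to 78.3 CPM), which was called lower in CPCCs (log2 fold change -1.46 ± 0.38 SE, adjusted p = 0.00892, edgeR). *Tnnt2* and *Des* were called higher, and *Myl7* and *Ryr2* did not pass the threshold. *Actc1*, listed for CPCCs only, stood at 247, 82.8 and 88.2 CPM there. Endothelial markers, of which 5 of 6 are listed for CPCCs (not *Tie1*) and 2 for mESCs, came to 15.2 to 25.8 CPM against 91.4 to 101 CPM, but this sum is mostly *Pecam1* in mESCs (85.1 to 94.3 CPM, and 3.18 to 6.26 CPM in CPCCs), while *Cdh5*, *Emcn* and *Kdr* are listed for CPCCs only and *Tek* did not pass the threshold. Blood and platelet markers, of which 5 of 6 are listed for CPCCs (not *Hbb-bt*) and 1 for mESCs, came to 21.5 to 48.4 CPM against 0.72 to 0.88 CPM. In S05 and S06 most of this sum was *Gp1bb*, at 21.5, 27.4 and 18.1 CPM in S04, S05 and S06. *Ptprc* stood at 13.7, 2.71 and 0.35 CPM in the same order. *Pf4* and *Itga2b* were each at no more than 1.29 CPM in S05 and S06. The part of these cells in the results below was not tested, and in bulk RNA more cells of a type and more RNA per cell cannot be told apart.

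All 9 members were higher in CPCCs than in mESCs (edgeR's quasi-likelihood test, TMM normalization, Benjamini-Hochberg adjusted p under 0.05 over the 12471 genes tested), and for each of them every CPCC library lay above every mESC library. Over all genes tested, 61.4% were called in either direction, 31.7% were called higher in CPCCs and 33.8% had every CPCC library above every mESC library. All 9 members passed the filter on low counts. The log2 fold changes ranged from 1.35 in *Actn4* and *Tln1* to 6.20 in *Zyx*, with a median of 2.52, while the genes tested as a whole had a median of 0.03. A test against a 2-fold change still called all 9 members (largest adjusted p = 0.0361 in *Tln1*, edgeR), where it called 17.4% of all genes higher. The p-values measure the spread between 3 libraries per cell type, which the study calls biological replicates.

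**Figure D1:**
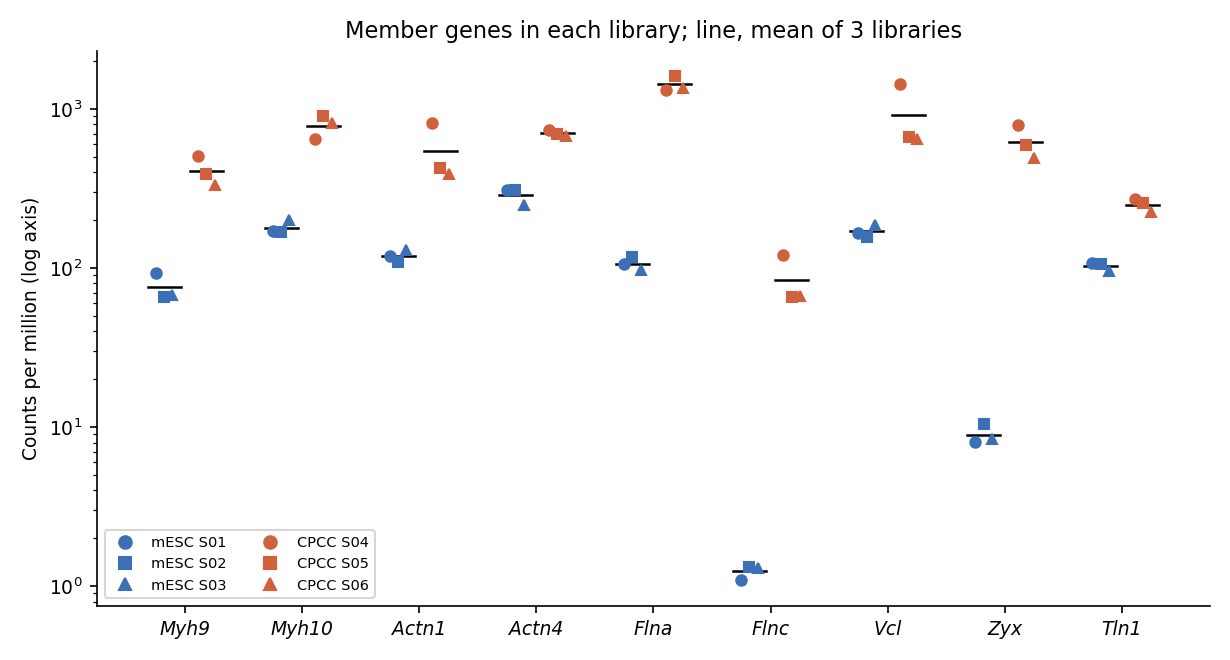
Level of each member (CPM, log axis) in the 3 mESC libraries (blue) and the 3 CPCC libraries (red), with a line at each mean. For all 9 genes the red points lie above the blue ones, by the widest gap in *Flnc* and *Zyx*, and S04 (red circle) lies above the other CPCC libraries in 7 of them but not in *Flna* and *Myh10*.

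Both of the heavy chain genes among the members rose. *Myh9* (chromosome 15, 77760585 to 77842176, minus strand), the heavy chain of nonmuscle myosin IIA, stood at 93.0, 65.8 and 67.8 CPM in mESCs (the order is S01, S02, S03 throughout), against 509, 387 and 331 CPM in CPCCs (S04, S05, S06). The lowest CPCC library was thus 3.56-fold above the highest mESC library. The means were 75.5 ± 15.2 and 409 ± 90.7 CPM (SD, n = 3 each), with a log2 fold change of 2.52 ± 0.25 (SE, adjusted p = 4.64e-05, edgeR). *Myh10* (chromosome 11, 68691915 to 68816625, plus strand), the heavy chain of nonmuscle myosin IIB, stood at 170.1, 169 and 200.4 CPM in mESCs, against 650, 897 and 814 CPM in CPCCs. Here S04 was the lowest of the CPCC libraries, in contrast to *Myh9*. The means were 179.7 ± 17.9 and 787 ± 126 CPM (SD, n = 3 each), with a log2 fold change of 2.18 ± 0.16 (SE, adjusted p = 9.98e-06, edgeR).

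Within a library, *Myh9* had 0.55, 0.39 and 0.34 counts per count of *Myh10* in mESCs, against 0.78, 0.43 and 0.41 in CPCCs. These ranges overlap, and the mean log2 ratio differed by 0.31 between the cell types (two-sided exact permutation p = 0.50, the same after Benjamini-Hochberg adjustment over 4 ratios). A shift from one heavy chain to the other was not detectable with 3 libraries per cell type. Without S04 the difference was 0.0094. Of all members, *Myh9* and *Myh10* were the only ones with words of 100 bases that another gene's transcript also holds, 23 words each (0.314% of *Myh9* and 0.299% of *Myh10*). These words lie in the longest run that both transcripts share, 122 coding bases in exon 13 of each (GENCODE vM21, GRCm38; chr15:77786539-77786660, minus strand, and chr11:68768199-68768320, plus strand), printed because it is the stretch in which the heavy chain transcripts are hardest to tell apart. It is shorter than the reads as sequenced, so a full read does not lie inside it.
Myh9 and Myh10: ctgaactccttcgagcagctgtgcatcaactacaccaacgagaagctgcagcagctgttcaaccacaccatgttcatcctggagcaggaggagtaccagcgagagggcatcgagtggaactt

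The other genes of the myosin did not all move with its heavy chains. *Myh14*, which encodes the heavy chain of nonmuscle myosin IIC, stood at 2.17, 1.77 and 2.32 CPM in mESCs, against 0.26, 0.35 and 0.94 CPM in CPCCs, with a log2 fold change of -1.97 ± 0.68 (SE, adjusted p = 0.0304, edgeR). It lay below 1 CPM in every CPCC library, on 3, 3 and 8 counts. This call was lost when any 1 library other than S06 was left out (adjusted p of 0.0624 to 0.102, edgeR), and without S06 the log2 fold change was -2.60. Of 4 light chain genes, 3 were higher and 1 was lower. *Myl9*, a regulatory light chain shared with smooth muscle, rose from 3.41, 4.12 and 3.04 CPM to 1003, 1146 and 815 CPM (log2 fold change 8.19 ± 0.27 SE). *Myl12b*, another regulatory light chain, fell from 172, 168 and 224 CPM to 91.6, 102 and 79.4 CPM, a log2 fold change of -0.98 ± 0.20 (SE). Its relative *Myl12a*, named after its values were seen, rose from 359, 357 and 417 CPM to 1162, 664 and 675 CPM (log2 fold change 1.23 ± 0.27 SE). The estimated counts of both genes have decimals, and a split of reads between them was not tested. Of 8 regulators of myosin II, 4 were higher, 0 lower and 4 did not pass the threshold. The largest rise among them was that of *Mylk*, the kinase that phosphorylates the regulatory light chain, from 1.09, 0.29 and 0.16 CPM to 5.95, 21.7 and 13.3 CPM (log2 fold change 4.76 ± 0.72 SE, and 5.90 without S01). The lowest value was that of *Ppp1cb*, a catalytic subunit of the phosphatase that reverses that step, at -0.48 ± 0.19 (SE, adjusted p = 0.0553, edgeR), and without S04 it passed the threshold as lower (-0.66, adjusted p = 0.00178, edgeR).

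Both of the nonmuscle alpha-actinin genes rose, *Actn1* with a wide and *Actn4* with a narrow spread between CPCC libraries. *Actn1* (chromosome 12, 80167542 to 80260382, minus strand), which crosslinks actin in stress fibres and adhesions, stood at 118, 109 and 129.9 CPM in mESCs, against 821, 428 and 390.1 CPM in CPCCs. The means were 119 ± 10.4 and 546 ± 238 CPM (SD, n = 3 each), with a log2 fold change of 2.29 ± 0.33 (SE, adjusted p = 0.000324, edgeR), and of 1.79 without S04. *Actn4* (chromosome 7, 28893254 to 28962281, minus strand), the other nonmuscle alpha-actinin, stood at 309.7, 309.9 and 248 CPM in mESCs, against 734, 692 and 677 CPM in CPCCs. Its CPCC libraries lay close together, with a coefficient of variation of 4.22%, against 43.6% for *Actn1*. The log2 fold change of *Actn4* was 1.35 ± 0.16 (SE, adjusted p = 0.000143, edgeR). *Actn1* had 0.38, 0.35 and 0.52 counts per count of *Actn4* in mESCs and 1.12, 0.62 and 0.58 in CPCCs. The ranges do not overlap, and the mean log2 ratio was 0.83 higher in CPCCs (two-sided exact permutation p = 0.10, the smallest possible here, and 0.133 after adjustment). Without S04 the difference was 0.53. The striated muscle paralogs *Actn2* and *Actn3* did not pass the threshold, with log2 fold changes of -0.64 ± 0.45 (SE, adjusted p = 0.246, edgeR) and 0.17 ± 0.48 (SE, adjusted p = 0.772, edgeR), and neither was above 13.4 CPM in any library. Exons of *Capn12*, on the opposite strand, cover 8.03% of the exon bases of *Actn4*, and *Capn12* was at no more than 6.86 CPM. Predicted genes on the opposite strand, *Gm47766* and *Gm47767*, cover 9.55% and 2.32% of the exon bases of *Actn1*.

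Both of the filamin members were higher in CPCCs. *Flna* (chromosome X, 74223461 to 74246535, minus strand), the main filamin of nonmuscle cells, stood at 106, 117 and 96.9 CPM in mESCs, against 1325, 1612 and 1363 CPM in CPCCs, with S04 the lowest in CPCCs. The means were 106 ± 9.95 and 1433 ± 156 CPM (SD, n = 3 each), with a log2 fold change of 3.81 ± 0.17 (SE, adjusted p = 1.31e-06, edgeR). *Flnc* (chromosome 6, 29433153 to 29461889, plus strand), the filamin known from striated muscle, was barely counted in mESCs, with 7, 9 and 9 counts or 1.09, 1.32 and 1.30 CPM. In CPCCs it reached 121, 65.7 and 67.0 CPM (log2 fold change 6.16 ± 0.41 SE, adjusted p = 5.25e-06, edgeR). The lowest CPCC library was 49.6-fold above the highest mESC library.

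Counts of *Flna* per count of *Flnc* were 97.3, 88.1 and 74.3 in mESCs, against 10.99, 24.5 and 20.4 in CPCCs, a mean log2 ratio that fell by 2.20. The cell types do not overlap (two-sided exact permutation p = 0.10, the smallest possible, and 0.133 after adjustment over 4 ratios). As a ratio within a library, this value does not depend on the scaling between libraries. Their transcripts share no exact run longer than 26 bases.

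**Figure D2:**
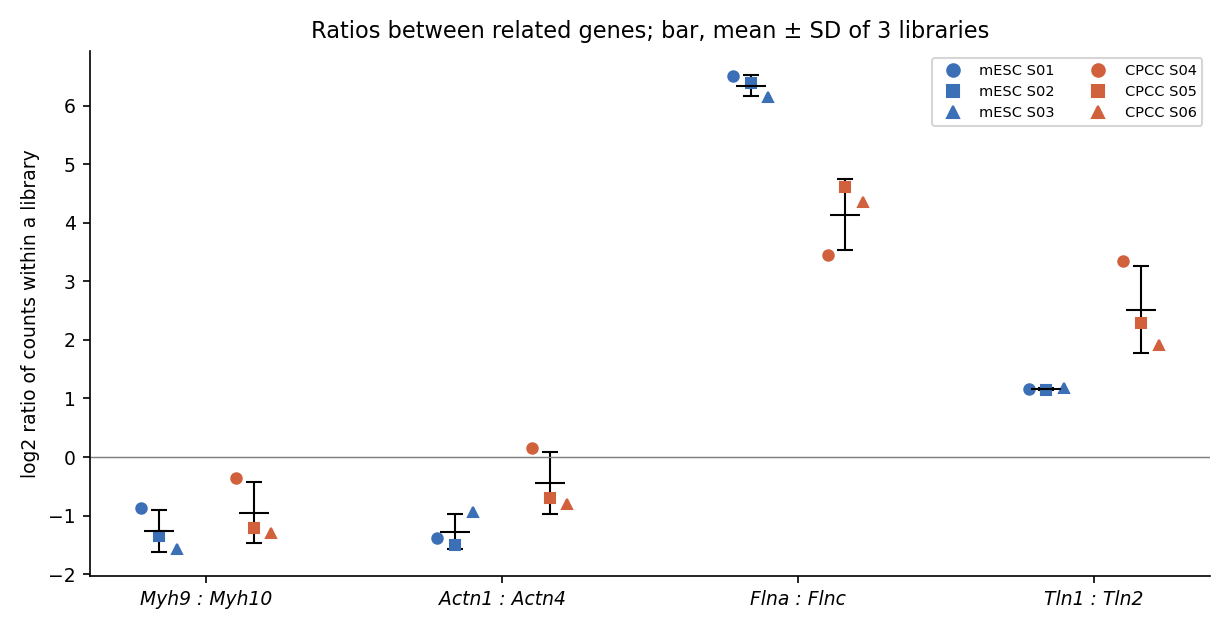
log2 ratio of the counts of related genes within each library (blue, mESCs; red, CPCCs), with mean ± SD of 3 libraries. The ratio *Myh9* to *Myh10* overlaps between the cell types, while the other 3 ratios do not, from a shift of 0.83 for *Actn1* to *Actn4* to one of -2.20 for *Flna* to *Flnc*.

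Of the focal adhesion members, *Tln1* changed least and *Zyx* most. *Tln1* (chromosome 4, 43531513 to 43562584, minus strand), the talin that activates integrins and links them to actin, stood at 107, 106 and 95.8 CPM in mESCs, against 271, 255 and 225 CPM in CPCCs. The means were 103 ± 6.13 and 250.2 ± 23.4 CPM (SD, n = 3 each), with a log2 fold change of 1.35 ± 0.18 (SE, adjusted p = 0.000190, edgeR). Its paralog *Tln2* did not pass the threshold, with 48.0, 47.5 and 42.4 CPM in mESCs, against 26.8, 51.9 and 59.7 CPM in CPCCs (log2 fold change 0.038 ± 0.25 SE, adjusted p = 0.904, edgeR). *Tln1* had 2.23, 2.22 and 2.26 counts per count of *Tln2* in mESCs and 10.1, 4.91 and 3.76 in CPCCs. The mean log2 ratio was 1.35 higher in CPCCs, without overlap (two-sided exact permutation p = 0.10, the smallest possible, and 0.133 after adjustment), and 0.94 higher without S04. Exons of *Creb3*, on the opposite strand, cover 1.08% of the exon bases of *Tln1*. *Creb3* was itself called higher in CPCCs (log2 fold change 3.19 ± 0.26 SE, adjusted p = 1.46e-05, edgeR).

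*Vcl* (chromosome 14, 20929433 to 21033674, plus strand), which encodes vinculin, stood at 166, 157 and 186 CPM in mESCs, against 1442, 671 and 644 CPM in CPCCs. S04 held more than the other 2 CPCC libraries together, and the spread between CPCC libraries was the widest of the members (coefficient of variation 49.3%). The means were 169.8 ± 15.1 and 919 ± 453 CPM (SD, n = 3 each), with a log2 fold change of 2.53 ± 0.35 (SE, adjusted p = 0.000294, edgeR). Without S04 the log2 fold change was 1.97 (adjusted p = 1.58e-07, edgeR). Exons of *Ap3m1* on the opposite strand cover 39.7% of the exon bases of *Vcl* (GENCODE vM21). The strand of the reads in the counting is not stated and the kit does not mark it, so reads in the 2090 shared bases cannot be told apart. *Ap3m1* itself stood at 78.4 to 114 CPM in mESCs and 106 to 137 CPM in CPCCs and did not pass the threshold (log2 fold change 0.44 ± 0.22 SE, adjusted p = 0.107, edgeR), though it did as higher without S03 (0.64, adjusted p = 0.0454, edgeR).

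*Zyx* (chromosome 6, 42349828 to 42360214, plus strand), which encodes the LIM protein zyxin, stood at 8.07, 10.5 and 8.40 CPM in mESCs (52, 71 and 58 counts) and at 788, 590.2 and 493 CPM in CPCCs. The lowest CPCC library was 47.2-fold above the highest mESC library. The means were 8.97 ± 1.29 and 624 ± 151 CPM (SD, n = 3 each), with a log2 fold change of 6.20 ± 0.30 (SE, adjusted p = 1.61e-06, edgeR). Of all genes tested, 0.738% had a log2 fold change at least as large. Exons of *Epha1*, on the opposite strand, cover 5.94% of its exon bases. *Epha1* is listed for CPCCs only, at 8.52 to 10.7 CPM.

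Of the 5 relatives of zyxin that also carry LIM domains, 3 were higher and 1 was lower in CPCCs. *Lpp*, a close relative found at adhesions and cell contacts, stood at 10.4, 9.27 and 10.7 CPM in mESCs, against 3379, 2007 and 1695 CPM in CPCCs, a log2 fold change of 7.95 ± 0.39 (SE, adjusted p = 1.62e-06, edgeR). Every CPCC library lay far above every mESC library, as for *Zyx*. *Limd1* rose by a log2 fold change of 1.85 ± 0.17 (SE) and *Trip6* by 0.92 ± 0.22 (SE). *Wtip* was lower in CPCCs, a call lost without S01 or S02 (-0.72 ± 0.21 SE, adjusted p = 0.0148, edgeR), and *Ajuba* did not pass the threshold (-0.28 ± 0.16 SE, adjusted p = 0.162, edgeR).

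**Figure D3:**
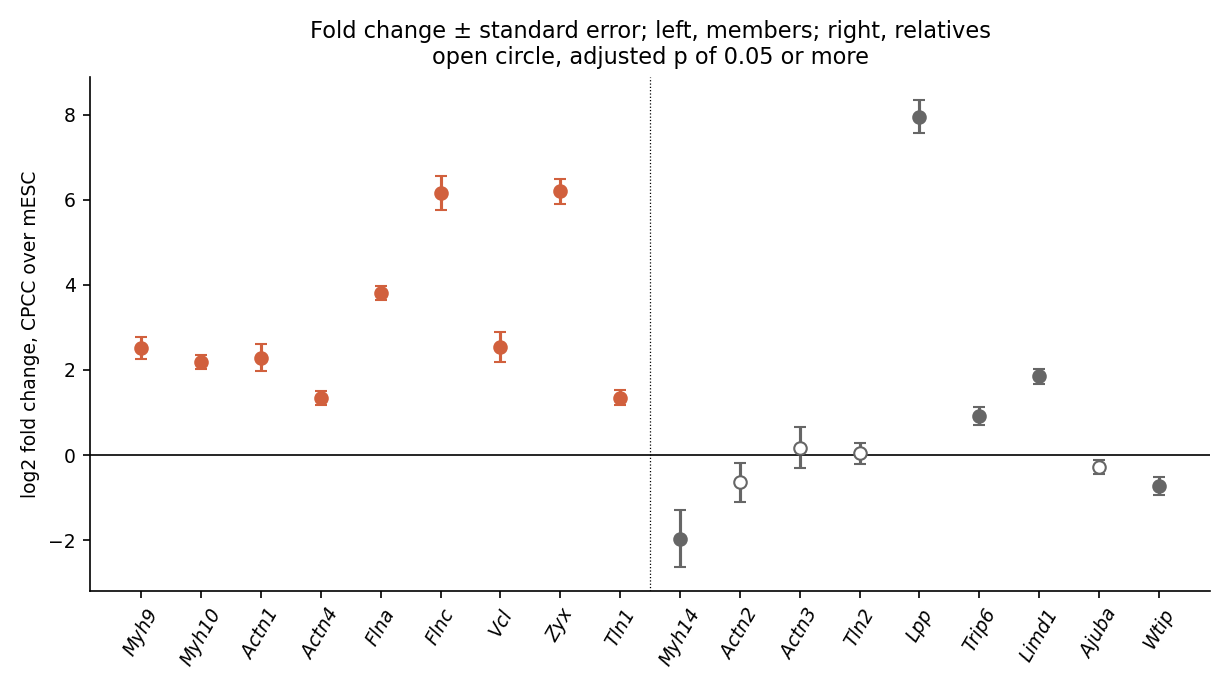
log2 fold change (CPCC over mESC) ± standard error from edgeR for the 9 members (red, left) and 9 relatives (grey, right), with open circles where the adjusted p was 0.05 or more. The members lie between 1.35 and 6.20, while the relatives lie on both sides of 0, from -1.97 in *Myh14* to 7.95 in *Lpp*.

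The order of the members by level changed between the cell types. Levels of different genes were compared as CPM per kilobase of merged exons (GENCODE vM21). In mESCs, *Actn4* was highest at 73.4 ± 9.12 CPM per kilobase (SD, n = 3), followed by *Vcl* at 32.2 ± 2.86 and *Actn1* at 31.3 ± 2.74, whose ranges overlap. *Myh10* came next at 20.8 ± 2.07. *Flna* (12.5 ± 1.17), *Tln1* (12.3 ± 0.73) and *Myh9* (10.2 ± 2.04) followed, each overlapping its neighbour in this order. *Zyx* at 2.26 ± 0.32 and *Flnc* at 0.14 ± 0.015 stood well below the rest, without overlap. In CPCCs, *Actn4* at 178 ± 7.51, *Vcl* at 174 ± 86.0, *Flna* at 169 ± 18.4, *Zyx* at 157 ± 37.9 and *Actn1* at 144 ± 62.7 CPM per kilobase (SD, n = 3 each) overlapped each with the next, so that their order is not set by these libraries. *Zyx* thus stood among the highest members in CPCCs and next to last in mESCs. *Actn1* also overlapped *Myh10* at 91.0 ± 14.6. *Myh9* (55.0 ± 12.2), *Tln1* (29.8 ± 2.79) and *Flnc* (9.34 ± 3.47) followed without overlap. *Flnc* was the lowest member in both cell types.

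Summed over the 9 members, the libraries held 1079, 1045 and 1034 CPM in mESCs, against 6660.4, 5599 and 5004 CPM in CPCCs. The mean sum was 5.47-fold higher in CPCCs (two-sided exact permutation p = 0.10, the smallest possible with 3 libraries against 3). Within this sum, the mean share of *Actn4* was 27.4% in mESCs and 12.3% in CPCCs, and that of *Flna* was 10.1% and 25.3%. *Zyx* made up 0.85% of the sum in mESCs and 10.7% in CPCCs. *Myh9* kept a like share, at 7.16% and 7.06%.

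The CPCC library S04 stood apart from S05 and S06 in some members and not in others. Its level over the mean of the other 2 CPCC libraries was 2.19 for *Vcl*, 2.01 for *Actn1* and 1.82 for *Flnc*, and 1.46 for *Zyx* and 1.42 for *Myh9*. It was near 1 for *Tln1* (1.13), *Actn4* (1.07) and *Flna* (0.89), and 0.76 for *Myh10*. These are ratios of CPM without TMM scaling. After that scaling the log2 ratio was 0.36 for *Tln1*, 0.28 for *Actn4*, 0.013 for *Flna*, -0.22 for *Myh10* and 1.32 for *Vcl*. With TMM scaling, 2.41% of all genes tested had a ratio at least as large as that of *Vcl*, 3.49% as that of *Actn1* and 5.03% as that of *Flnc*. The summed striated muscle markers were 452 CPM in S04 against 150 and 185 CPM in S05 and S06, the cardiac progenitor markers 102 against 50.6 and 54.0 CPM, and the mESC markers 108 against 217 and 295 CPM. Smooth muscle markers came to 9884 CPM in S04 against 8631 and 6230.2 CPM, endothelial markers to 25.8 against 15.2 and 15.2 CPM, and blood and platelet markers to 48.4 against 33.6 and 21.5 CPM. S04 was not the highest for fibroblast markers (6553 against 9125 and 6306 CPM) or neural markers (504 against 584 and 608 CPM). The part of these cells in the S04 values was not tested. Without S04 all 9 members were still called higher, with log2 fold changes from 1.24 in *Tln1* to 5.93 in *Zyx*.

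**Figure D4:**
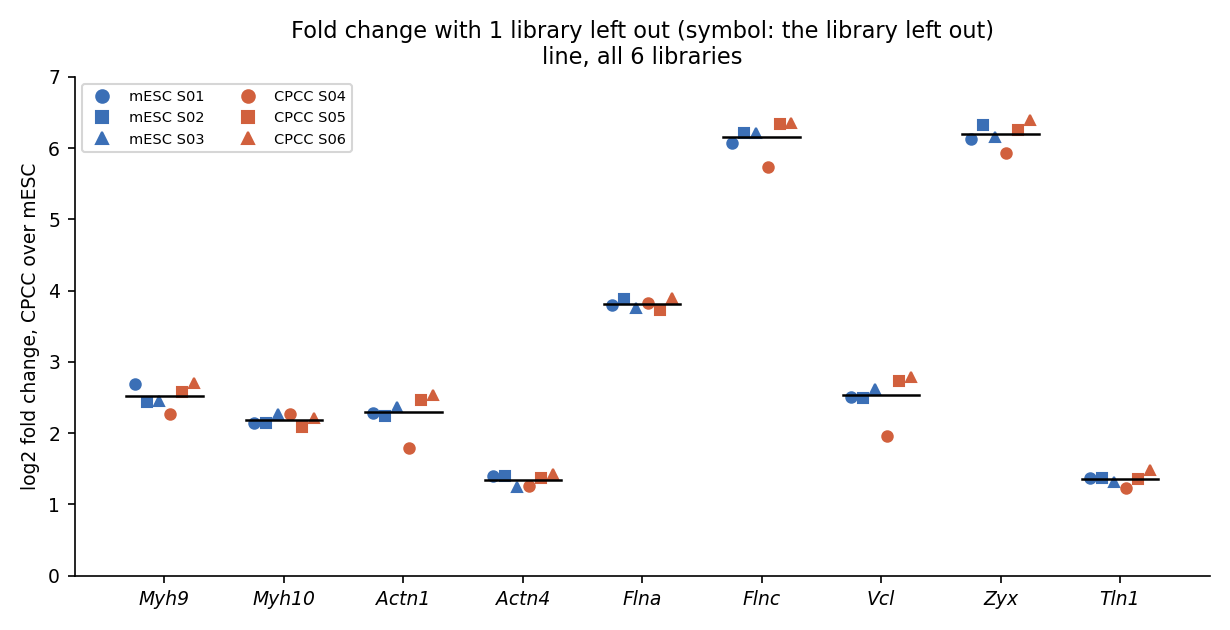
log2 fold change of each member with all 6 libraries (line) and with 1 library left out, the symbol naming the library that was left out. Leaving out S04 (red circle) lowers *Vcl* from 2.53 to 1.97 and *Actn1* from 2.29 to 1.79, while *Flna* stays between 3.73 and 3.90 in every fit.

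The promoters of the members were searched for letters of 3 motifs, chosen with the fold changes known, in the 250 bases before each RefSeq start (GRCm38.p6). All 9 members matched, with 10 windows, as *Flnc* has 2 starts whose windows overlap. The CArG box, the element known to bind serum response factor, was found in 1 member, *Vcl*, and in 1.47% of the 32851 windows of all genes. The window of *Vcl* (chr14:20929148-20929397, plus strand) is printed as the one that holds it, with the CArG box in capitals, 227 to 218 bases before the start. Beside it stands that of *Zyx* (chr6:42349578-42349827, plus strand), the member with the largest log2 fold change (within the error of that of *Flnc*), in which neither the CArG box nor GGAATG was found.
Vcl: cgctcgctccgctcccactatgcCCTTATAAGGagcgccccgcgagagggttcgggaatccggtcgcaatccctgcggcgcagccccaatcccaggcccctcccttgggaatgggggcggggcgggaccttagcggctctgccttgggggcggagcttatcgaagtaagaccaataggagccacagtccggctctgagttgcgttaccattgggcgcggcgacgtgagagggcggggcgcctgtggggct
Zyx: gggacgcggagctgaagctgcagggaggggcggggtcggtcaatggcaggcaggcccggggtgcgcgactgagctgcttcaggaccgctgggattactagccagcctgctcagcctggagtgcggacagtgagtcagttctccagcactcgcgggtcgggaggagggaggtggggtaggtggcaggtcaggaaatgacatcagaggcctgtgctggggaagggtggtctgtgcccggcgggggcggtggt

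The letters GGAATG, the core of the M-CAT element bound by TEAD factors, were found on either strand in 5 members (*Actn4*, *Flna*, *Flnc*, *Myh10* and *Vcl*) and in 12.6% of all windows. GGGCGG, the core of the GC box, was found on either strand in 7 members and in 32.7% of all windows. The windows of the members hold 55.6% (*Tln1*) to 77.2% (1 start of *Flnc*) G and C. Matches of such short motifs are descriptions of the sequence, and binding was not measured. The 36 bases around each GGAATG match are given on the gene's strand with the match in capitals (CATTCC where the motif lies on the opposite strand), at chr7:28962528-28962563 (minus strand), chrX:74246660-74246695 (minus strand), chr6:29433137-29433172 (plus strand), chr11:68691879-68691914 (plus strand) and chr14:20929240-20929275 (plus strand).
Actn4: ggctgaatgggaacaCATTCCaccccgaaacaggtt
Flna: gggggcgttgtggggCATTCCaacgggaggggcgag
Flnc: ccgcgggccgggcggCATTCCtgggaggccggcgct
Myh10: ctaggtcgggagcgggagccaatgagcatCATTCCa
Vcl: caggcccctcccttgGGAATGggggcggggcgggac

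A wider list of 75 partner genes of myosin II, stress fibres and focal adhesions shared the direction of the members in most but not all of its genes. Of the 67 tested, 45 (67.2%) were higher in CPCCs, 5 (7.46%) were lower and 17 did not pass the threshold, where 31.7% of all genes were called higher and 29.7% lower. Their median log2 fold change was 1.34, where that of all genes was 0.03. *Lpxn* and *Parvg* did not pass the filter on low counts. The 5 lower genes were *Myh14*, *Myl12b*, *Wtip*, *Tpm3* and *Fblim1*. Without S01 only 2 partner genes were called lower and without S02 only 1, and of the 5 genes *Myl12b* alone was called lower whichever library was left out. Another 6 are listed for CPCCs only and were at least 377-fold (*Tgfb1i1*, the paxillin relative Hic-5), 363-fold (*Synpo*), 129.7-fold (*Sorbs2*), 48.4-fold (*Pdlim3*), 27.6-fold (*Lims2*) and 2.12-fold (*Tns4*) higher there, against a floor of 3 counts in each mESC library. They were picked for this absence, with their values known.

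In the complex of integrin-linked kinase, its PINCH partners and the parvins, 5 of 5 genes tested were higher, led by *Parva* with a log2 fold change of 4.93 ± 0.25 (SE), from 14.3, 15.5 and 15.8 CPM to 520.1, 454 and 347 CPM. Of 11 kinases and docking proteins of adhesions, 6 were higher, 0 lower and 5 did not pass the threshold. *Nedd9*, a docking protein of the p130Cas family, rose from 1.71, 3.83 and 1.16 CPM to 153, 173 and 124 CPM (log2 fold change 6.13 ± 0.39 SE, and 6.77 without S02). Of 4 genes of the talin paralog and the kindlins, which act with talin on integrins, 2 were higher. *Fermt1* had the largest change of them (5.66 ± 0.31 SE), and *Fermt3* the lowest value (-0.048 ± 0.54 SE, adjusted p = 0.944, edgeR). Of 3 tensins tested, which tie integrins to actin, 2 were higher, with *Tns1* at 2.90 ± 0.30 (SE) and *Tns3* at -0.093 ± 0.27 (SE, adjusted p = 0.782, edgeR). Without S04, *Tns3* passed the threshold as lower (-0.49, adjusted p = 0.0101, edgeR).

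Of 10 stress fibre LIM and scaffold proteins tested, 8 were higher and 1 was lower, from 5.60 ± 0.49 (SE) in *Pdlim2* to -0.73 ± 0.20 (SE, adjusted p = 0.0120, edgeR) in *Fblim1*, which encodes a filamin-binding protein. Of the 3 Ena and VASP genes, which promote actin filament growth, 2 were higher, led by *Evl* at 1.09 ± 0.19 (SE). *Pxn*, which encodes paxillin, had a log2 fold change of 0.97 ± 0.23 (SE, adjusted p = 0.00504, edgeR). Of 7 cytoplasmic actin, tropomyosin and caldesmon genes, 6 were higher and 1 was lower, from 6.997 ± 0.38 (SE) in *Tpm2* to -0.51 ± 0.14 (SE, adjusted p = 0.0135, edgeR) in *Tpm3*. Serum response factor and its 2 cofactors of the MRTF family were all higher, led by *Mkl1* (Mrtfa) at 1.72 ± 0.22 (SE), from 17.1, 17.7 and 17.4 CPM to 58.9, 59.4 and 45.7 CPM.

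**Figure D5:**
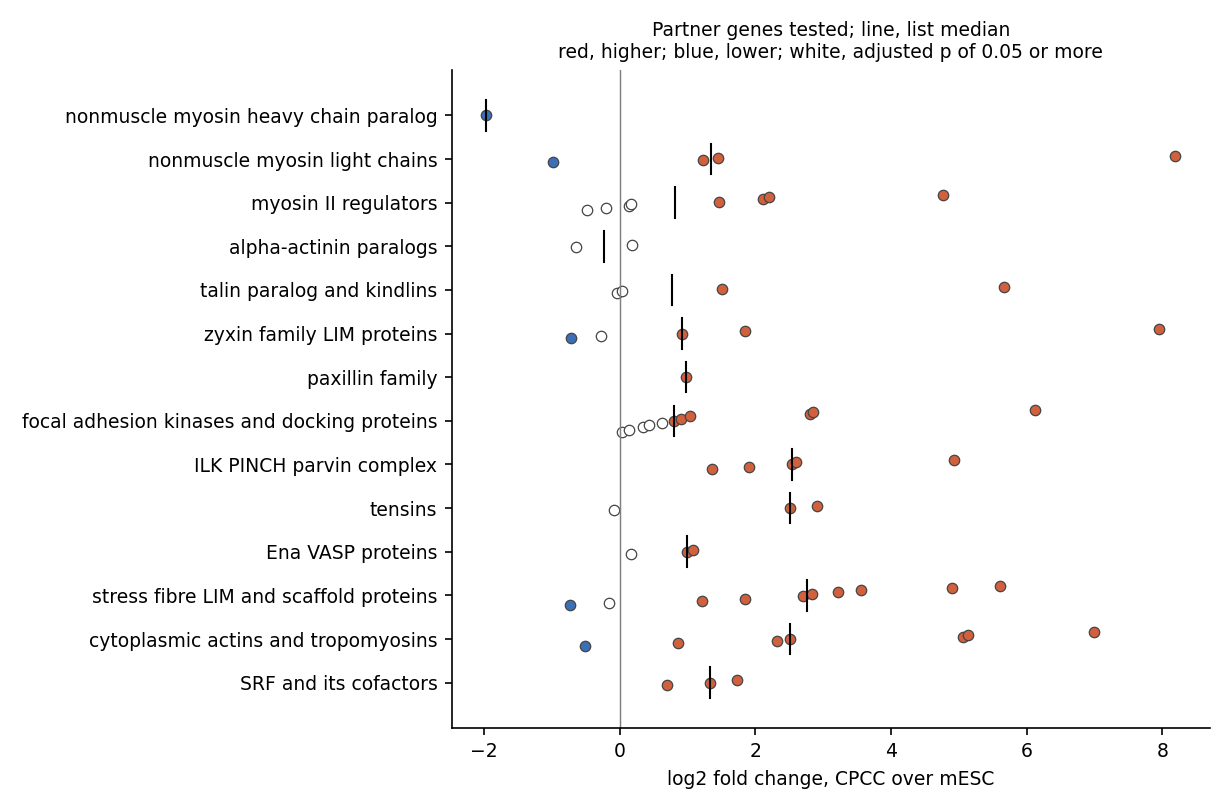
log2 fold change (CPCC over mESC) of each partner gene tested, by list, with a line at the list median (red, higher; blue, lower; white, adjusted p of 0.05 or more). Red points make up 45 of the 67, and the 5 blue points lie in 5 different lists.

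The genes outside the members whose centred log2 CPM over the 6 libraries lay closest to the mean profile of the members were *Tulp4*, *Cpd*, *Palld*, *Itga5* and *Chst12*, with root mean square differences of 0.069 to 0.11 on the log2 scale. *Palld*, which encodes the stress fibre protein palladin, and *Itga5*, which encodes the alpha5 chain of the fibronectin receptor, had log2 fold changes of 3.21 ± 0.22 (SE) and 3.17 ± 0.21 (SE). The members themselves lay 0.33 (*Myh9*) to 1.53 (*Zyx*) from that mean, so the mean profile does not stand for each of them.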

How the data were processed

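Bulk RNA-seq was deposited as 1 table per cell type. The authors made cDNA from polyA+ RNA with the SMART-Seq v4 kit and sequenced paired ends of 125 bases. Per the labels, the submitters' processing notes name STAR 2.7 and the build mm10. The counter is not given in the sources used here. The deposited values are estimated counts per gene without normalization, of which 17.9% to 21.5% per library had decimals. They were rounded to whole numbers. Each table lists only genes with at least 10 counts over its 3 libraries. Gene positions are those of the tables, whose stop can lie 1 base past the gene.

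The 13001 genes in both tables were filtered with filterByExpr, which removed 530. They were tested with edgeR 4.0.16 in R 4.3.3 (quasi-likelihood test, TMM, Benjamini-Hochberg adjusted p under 0.05), and the standard error is the log2 fold change over the square root of F. CPM use whole-table totals. Genes in 1 table only were given bounds against 3 counts per library. Ratios are log2(count + 0.5) differences within a library, compared by exact permutation tests. Bounds set the mean CPM of the listed cell type against that of 3 counts, and no spread between libraries is given for them. Low counts carry counting error besides the spread between libraries. Alternatives were DESeq2 1.42.0, other scalings, filters and thresholds, and leaving out each library. The fits were tested on simulated data.

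The members and lists were chosen with earlier results of these data known, and the partner lists came from general knowledge of the pathway. Genes named are the members, their paralogs with the zyxin family, the largest rise and fall of each other list, and the 5 genes closest to the members' mean profile. Exon lengths and overlaps are from GENCODE vM21 and promoters from RefSeq. Allele-specific data were not analysed here, and 1 gene planned among the partners, with its ratio, is not reported here.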

Additional observations from a re-analysis of the deposited data

How the results depend on the processing

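All 9 members stayed higher in CPCCs under DESeq2, under other scalings, without a filter, under a 2-fold threshold and without each library, with the exception of *Flnc*, which a minimum of 10 counts in every library removes (8 members called). Their log2 fold changes kept their direction, and the largest adjusted p of a member was 0.0361. Without each library in turn, the summed level of the members was 5.04-fold to 5.82-fold higher in CPCCs, and 4.57-fold without *Flna*. The ratio *Myh9* to *Myh10* differed by 0.0094 to 0.51. Under the 2-fold threshold 0 partner genes were called lower in place of 5 (2174 higher and 1346 lower over all genes), since that test asks for more than any change. Without each library in turn, 1 to 6 partner genes were called lower. For 3 genes that did not pass the threshold, the sign turned in some fits: *Tln2* (-0.13 to 0.29 without each library in turn), *Tns3* (-0.49 to 0.10) and *Fermt3* (-0.39 to 0.45, and 0.042 with at least 10 counts in every library). *Ppp1cb* passed as lower with upper-quartile scaling and with library totals. The cause of these shifts was not tested. No paired analysis was possible because the columns carry no replicate numbers. Depth limits *Flnc*, *Myh14*, *Mylk*, *Fermt1* and *Tpm2*, each counted by under 20 reads per library in at least 1 cell type.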

Other observations

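Among the actins and tropomyosins, genes of one family had different fold changes. *Actb* and *Actg1*, singled out after their values were seen, encode the cytoplasmic actins. *Actb* stood at 979, 953 and 929 CPM in mESCs (S01, S02, S03), against 5332, 5304 and 4860.0 CPM in CPCCs (S04, S05, S06; log2 fold change 2.503 ± 0.15 SE), while *Actg1* stood at 2792, 3012 and 3185 CPM and at 5345, 5296 and 4874 CPM (0.85 ± 0.14 SE). Both genes were higher in CPCCs, *Actb* by more on the log2 scale, and that difference was not tested. Both have close relatives whose reads the counting could have split. *Tpm1*, which encodes a tropomyosin of stress fibres and muscle and was also singled out after its values were seen, rose by 5.13 ± 0.28 (SE) on the log2 scale, against -0.51 for *Tpm3*.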
